A study of Homo sapiens with 6 samples.

Results

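Ubiquitin-specific proteases (USPs), the largest family of deubiquitinases in human cells, were followed by ribosome profiling in HEK293 cells, which are an established line from human embryonic kidney. Members were the genes whose symbol consists of USP, a number and at most 1 further letter, in either deposited table: 41 of 10779 genes. Of these, 32 were among the 8121 genes with a translational efficiency, 35 among the 9570 transcripts with an occupancy profile, and 26 in both. USP11, USP25, USP36, USP45, USP48 and USP9X had a translational efficiency only, and USP2, USP20, USP21, USP24, USP28, USP42, USP43, USP44 and USP49 an occupancy profile only. There was 1 condition, cells labelled as control siRNA, with 3 replicates of ribosome-protected fragments (RPFs) and 3 of total RNA. Living cells received cycloheximide for 3 min before washing and lysis, and both buffers also contained it (100 µg/ml throughout). All samples had cycloheximide, so its effect on values per codon was not tested. No treatment was compared. The 3 replicates are of 1 cell line, and the methods describe the preparation as made in triplicate without naming separate cultures, so part of their spread may be technical. Of 7 genes listed as markers of HEK293 cells, 6 were in either table, among them the neurofilament genes NEFL and NEFM, and PAX2 was not. Of 6 markers of other cell types only COL1A1 was present.

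A USP cleaves ubiquitin from a substrate, or from another ubiquitin, through a catalytic cysteine that works with a histidine, and the family shares 1 catalytic fold while the rest of each protein differs widely. Members reverse ubiquitination at the proteasome, on histones and DNA repair factors, on endosomes, at the endoplasmic reticulum and on mitochondria, and several act only with a WD-repeat partner. Translational efficiency is the ratio of RPFs to total RNA of a gene in 1 replicate, as deposited. Occupancy is the number of in-frame RPFs at a codon, normalized by the authors for library size and divided by the TPM of the mRNA, its level in total RNA corrected for length, with the replicates combined, so that it is already per unit of mRNA. Neither measure shows how much protein was made per cell.

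Translational efficiency of the USP mRNAs ran from percentile 2.72 to 95.0 of all genes, but only USP14 lay above percentile 71.3, that of USP15. The SD of log2(value + 0.01) between genes was 1.06 for USP genes and 1.56 for all genes. The median over the 32 genes was 0.301 in replicate 1, 0.261 in replicate 2 and 0.298 in replicate 3, and the medians of all genes were 0.382, 0.38 and 0.388. The median of the mean values was thus 0.282 for USP genes and 0.385 for all genes. Each gene was set against the median of all values with limma on log2(value + 0.01), with Benjamini-Hochberg adjustment over all genes. Of the 32 genes, 27 passed the threshold, 10 higher and 17 lower. Of all genes 89.3% passed it, 44.7% higher and 44.6% lower, so a call by itself sets a USP gene apart from few others. A test against a difference of 1.5 times was passed by 14 members, 2 higher and 12 lower, and by 60.3% of all genes, 31.4% higher and 28.9% lower. The plot of translational efficiency by gene shows that USP14 stood alone at the top.

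**Figure D1:**
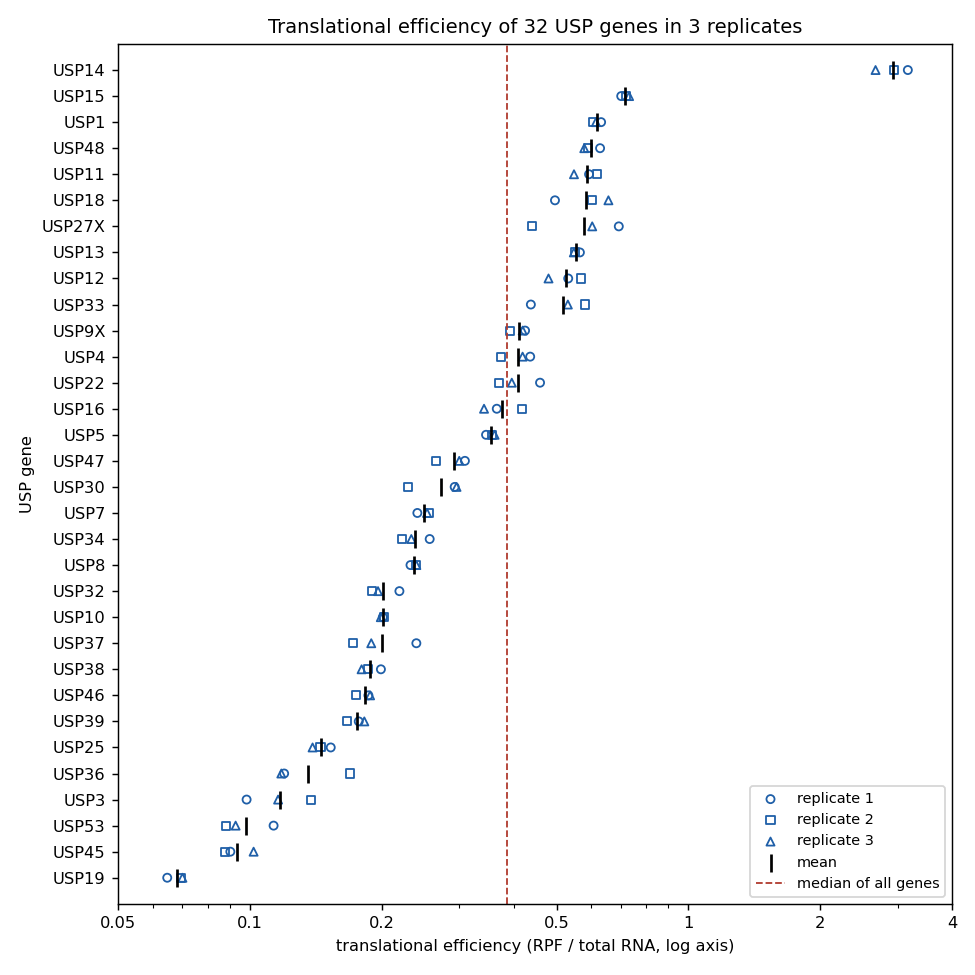
Translational efficiency (RPF over total RNA, log axis) of 32 USP genes, with the 3 replicates as open symbols, their mean as a bar and the median of all genes as a dashed line. USP14 lies between 2.67 and 3.17, the next gene, USP15, between 0.702 and 0.732, and USP19 at the bottom between 0.0646 and 0.0700.

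Among the 3 genes of ubiquitin chain recycling, 2 were higher and none lower, beside 44.7% and 44.6% of all genes. USP14, on chr18:158383-214629 of GRCh37, is the deubiquitinase that binds the proteasome and trims chains from its substrates. Its translational efficiency was 3.17, 2.94 and 2.67 in replicates 1 to 3, which put it at percentile 95.0 of all genes. It lay 2.90 (SE 0.0655) above the median on the log2 scale (limma, adjusted p = 2.16e-06), and its lowest replicate was above the highest replicate of every other USP gene. USP13, the less active relative of USP5, had 0.565, 0.551 and 0.548 and lay 0.52 above the median (limma, adjusted p = 0.000236). USP5, which takes apart chains that are attached to no substrate, had 0.345, 0.356 and 0.361 and was not called (log2 difference −0.11, SE 0.0485, limma adjusted p = 0.0801).

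The 11 genes acting on chromatin, transcription and DNA repair were spread on both sides, with 4 higher, 5 lower and 2 without a call. Calls in all genes were split in the same way, with 44.7% higher and 44.6% lower. USP1, which removes ubiquitin from FANCD2 and PCNA, had 0.632, 0.607 and 0.615 and lay 0.68 above the median on the log2 scale (limma, adjusted p = 8.73e-05). USP48 had 0.629, 0.590 and 0.578, and USP11, which takes part in DNA repair, had 0.593, 0.619 and 0.548. These 3 genes did not overlap with the median of all genes in any replicate. USP27X, a relative of the SAGA subunit USP22, had 0.694, 0.439 and 0.603, with the largest SE of the members called (0.132), and its reads are treated further on. At the other end, USP45 had 0.0901, 0.0876 and 0.102, USP3, a histone H2A deubiquitinase, had 0.0981, 0.138 and 0.116, and the nucleolar USP36 had 0.120, 0.169 and 0.118. Each of them was more than 1.5 times lower than the median by the stricter test, with log2 differences of −1.93, −1.64 and −1.45. USP7, the deubiquitinase of MDM2 and p53, had 0.241, 0.255 and 0.253. USP37, which acts in the cell cycle, had 0.239, 0.172 and 0.189. USP22, the deubiquitinase of the SAGA complex, had 0.459, 0.370 and 0.395, and USP16, which deubiquitinates histone H2A, had 0.365, 0.418 and 0.342. The last 2 genes lay on either side of the median within their own replicates and were not called (limma, adjusted p = 0.337 and 0.652).

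Of the 6 genes acting on endosomes, the endoplasmic reticulum, mitochondria and other membranes, 5 were lower and 1 higher. The shares of all genes were 44.6% lower and 44.7% higher, and whether these 6 differ from them was not tested. USP19, some of whose isoforms are anchored in the endoplasmic reticulum, had the lowest values of the family, 0.0646, 0.0695 and 0.0700, and lay at percentile 2.72 of all genes (log2 difference −2.33, SE 0.0513, limma adjusted p = 2.09e-06). USP25 had 0.153, 0.145 and 0.139, and USP32 had 0.219, 0.189 and 0.196. USP8, which acts on receptors sorted at endosomes, had 0.232, 0.239 and 0.239. Mitochondrial USP30, an antagonist of parkin, had 0.293, 0.229 and 0.296. All of these values were below the median of all genes in their replicate. USP33 was the exception with 0.437, 0.581 and 0.531.

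The 9 genes with roles in signalling or elsewhere in the cytoplasm held 2 that were higher, 5 that were lower and 2 without a call. Beside them, 44.7% of all genes were higher and 44.6% lower. USP15, a regulator of TGF-β signalling, had 0.702, 0.720 and 0.732 and was the only member besides USP14 to pass the stricter test above the median. USP12, which works with the WD-repeat proteins WDR48 and WDR20, had 0.532, 0.569 and 0.479. USP9X had 0.424, 0.391 and 0.419 and USP4 0.435, 0.374 and 0.418, and neither was called (limma, adjusted p = 0.133 and 0.228). USP47 had 0.309, 0.266 and 0.300, and USP34, which acts in Wnt signalling, had 0.257, 0.222 and 0.233. USP10, a partner of the stress granule protein G3BP1, had 0.201, 0.202 and 0.199, the smallest SD of the family. USP38 had 0.199, 0.186 and 0.18, and USP46 had 0.186, 0.174 and 0.188. The remaining 3 genes encode members that cleave another modifier or are counted as inactive. USP18, which removes the ubiquitin-like ISG15, was higher, with 0.496, 0.602 and 0.657. USP39, a splicing factor that lacks the catalytic cysteine, was lower with 0.177, 0.166 and 0.182, and USP53 was lower with 0.113, 0.0879 and 0.0926.

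The study design gives 1 condition, so the contrast open to the family is between relatives. Of 23 pairs of close relatives listed, 8 had both genes in the table of translational efficiency. In 7 of them the 3 values of one gene did not overlap with the 3 values of the other, and in 8 of 8 the difference had the same sign within every replicate. Of all pairs of tested genes, 90.2% did not overlap, so the count of 7 is no more than the background. Values that do not overlap also keep the same sign, so at least 90.2% of all pairs do so. The count of 8 thus sets these pairs apart from few others. An exact two-sided permutation test of 3 against 3 values cannot go below p = 0.1, which the 7 pairs reached (adjusted over 8 pairs, p = 0.114). USP16 was 4.02 times as high as USP45 (0.375 ± 0.0390 against 0.0932 ± 0.00757, SD, n = 3). USP12 was 2.88 times as high as USP46 (0.527 ± 0.0448 against 0.183 ± 0.00729, SD, n = 3), although both proteins work with the same WD-repeat partners. USP15 was 1.76 times as high as USP4 and 1.22 times as high as USP11, and USP11 was 1.43 times as high as USP4. USP13 was 1.57 times as high as USP5, and USP47 was 1.17 times as high as USP7. USP27X and USP22 overlapped (0.579 ± 0.129 against 0.408 ± 0.0456, SD, n = 3; exact permutation test, p = 0.2).

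**Figure D2:**
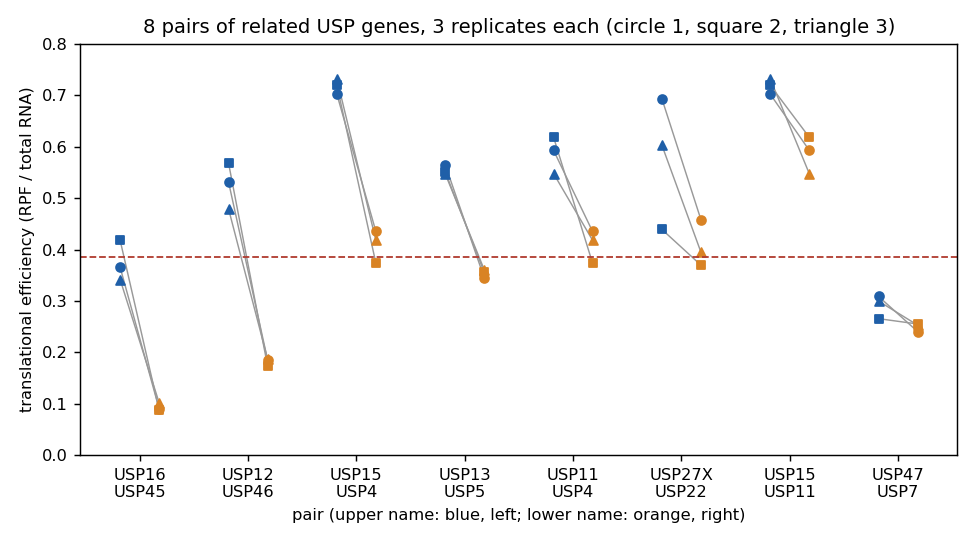
Translational efficiency (RPF over total RNA, linear axis) of both genes of 8 pairs in 3 replicates, joined by a line within each replicate, with the median of all genes as a dashed line. USP16 and USP45 lie farthest apart, at ratios of 4.02, and the points of USP27X and USP22 overlap, although each line falls.

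The other genes of the pathway are given for reference, from lists made with results of these data known. Of 45 other deubiquitinases listed, 26 had a translational efficiency, with a median of 0.437, and 13 were higher and 11 lower than the median of all genes. Of all genes 44.7% were called higher and 44.6% lower. The proteasome lid subunit PSMD14 was highest with 3.50, 3.76 and 3.51, and the other deubiquitinase of the proteasome, UCHL5, followed with 1.19, 1.12 and 1.33. USP14, PSMD14 and UCHL5 were each called higher, a call shared by 44.7% of all genes. The tumour suppressor BAP1 was lowest with 0.0584, 0.0566 and 0.0579. Of 8 partners of USPs in the table, 5 were higher and 2 lower, beside the same shares of all genes. GMPS, a partner of USP7, had a mean of 3.35 and G3BP1 one of 1.48, both above their deubiquitinases, while ATXN7L3, which activates USP22, had 0.0699.

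The occupancy profiles gave a second measure, per codon. Every value of the 35 USP transcripts could be written as a sum of whole multiples of 3 steps, what 1 read adds in each of the 3 libraries, so that the reads behind each value are known. The steps could not be assigned to replicates, so the 3 libraries are given from the lowest to the highest value. The coding sequences (CDS) held 203850 in-frame reads in all, from 58 in USP44 to 19718 in USP7. The median over members of the mean occupancy per codon was 0.0347, against 0.0450 for all transcripts, and 14 of the 35 lay above the latter.

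USP14 was highest here too, with an occupancy of 0.70 per codon, the sum of 0.219, 0.240 and 0.240 in the 3 libraries, and lay at percentile 99.4 of all transcripts from 16361 reads. USP27X followed with 0.370 (0.108, 0.114 and 0.148), and USP2, a deubiquitinase with several isoforms, with 0.193 (0.0564, 0.0679 and 0.0684). The lowest were USP43 with 0.00701 (0.00158, 0.00262 and 0.00281), USP49 with 0.0126 (0.00316, 0.00427 and 0.00522) and USP21 with 0.0127 (0.00385, 0.00418 and 0.00464). These 3 genes rest on 91, 115 and 314 reads, and the ranges of USP49 and USP21 overlapped. A read adds less on an abundant mRNA, so the steps also give the mRNA level in the total RNA. It was highest for USP22, at 8.46 times the median member, followed by USP1 with 7.5, and lowest for USP27X with 0.0687 and USP44 with 0.0502, a range of 169-fold.

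**Figure D3:**
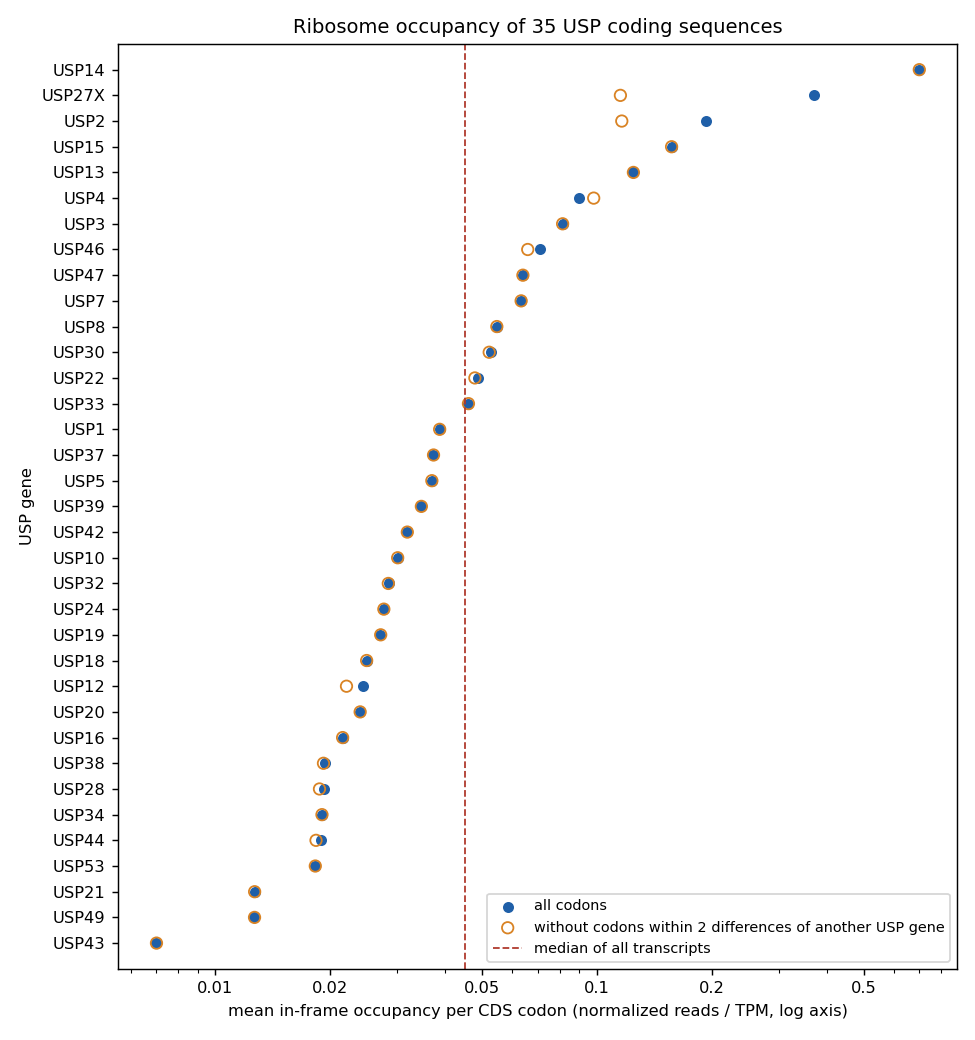
Mean in-frame occupancy per CDS codon (normalized reads over TPM, log axis) of 35 USP transcripts, with the median of all transcripts as a dashed line. Filled points are over all codons. Open circles leave out codons whose surrounding 28 nt differ at 2 or fewer positions from another of the 41 members. The circles of USP27X (0.115 against 0.370) and USP2 (0.116 against 0.193) stand apart from their points.

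The places of USP27X and USP2 rest on few codons. In USP2, 275 of 695 reads lay on codon 66, which had 158 times the mean occupancy of the CDS. This codon held 35.4%, 41.5% and 41.8% of the CDS reads in the 3 libraries. In USP27X, 214 of 936 reads lay on codon 198, which had 102 times the mean, and it held 21.4%, 23.7% and 24.2% of the reads. Over all 35 members the highest codon had a median of 22.6 times the mean, against 21.2 for the other transcripts, and only USP42 also exceeded 50 times (53.6 at codon 208, with 51 reads), as did 7.18% of the others. Both codons lie where the RNA is nearly the same as that of USP22, the member with the most mRNA. The windows are printed because a footprint of 28 to 30 nt cannot be longer than them. Each starts 13 nt before the codon, which is in capitals, and is read from GRCh37 transcripts. USP2 codon 66 lies in a window that spans exons 2 and 3, at chr11:119230357-119230909 on the minus strand, and USP22 codon 184 in exon 5, at chr17:20921379-20921408 on the minus strand. USP27X codon 198 lies at chrX:49645489-49645518 on the plus strand, and USP22 codon 296 at chr17:20916185-20916214 on the minus strand. Counted from the 5′ end of the window, USP2 and USP22 differ by A1C, G16A and C30G, and USP27X and USP22 by T7C and A25G.
USP2 codon 66: aaaccttgggaacACGtgcttcatgaactc
USP22 codon 184: caaccttgggaacACAtgcttcatgaactg
USP27X codon 198: ccactgtaactgcATCatagaccaaatctt
USP22 codon 296: ccactgcaactgcATCatagaccagatctt

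The read numbers on such codons were close in both genes. USP2 codon 66 had 54, 84 and 137 reads in the 3 libraries, and USP22 codon 184 had 76, 100 and 163. USP27X codon 198 had 53, 75 and 86 reads, and USP22 codon 296 had 57, 75 and 91. The mRNA of USP27X was 0.812% of that of USP22, so equal read numbers gave very unequal occupancies. Of the 411 aligned codons of USP22 and USP27X, whose proteins are 85.6% identical, 22 had a window of 28 nt with 2 or fewer differences. On these 22 codons USP22 had 836 reads and USP27X had 654, or 78.2%. On the 172 codons with 3 to 5 differences USP27X had 208 reads to 6323 of USP22, or 3.29%, and on the 217 codons with 6 or more it had 63 to 8146, or 0.773%. The share of reads in USP27X was thus near its share of mRNA only where the sequences differ at 6 or more positions.

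**Figure D4:**
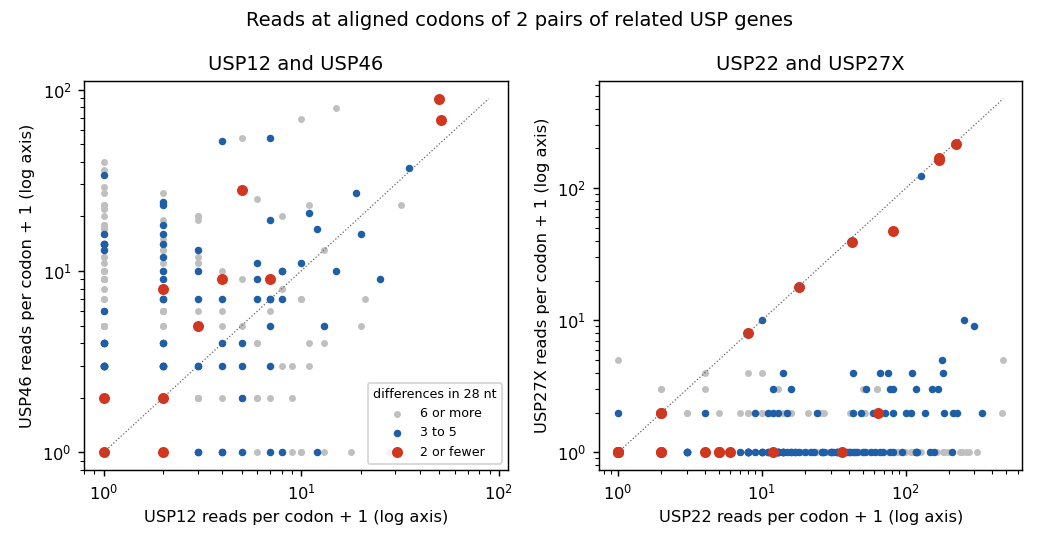
Reads per aligned codon, with 1 added (log axes), for USP12 against USP46 and USP22 against USP27X, coloured by the number of differences in the 28 nt around the codon, with equality as a dotted line. For USP22 and USP27X most red points with reads in both genes, at 2 or fewer differences, lie near the dotted line. Points at 6 or more differences lie far below it where USP22 has many reads, and closer to it where USP22 has few.

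Over the family, 70.0% of the reads of USP27X (68.8% to 72.1% in the libraries) lay on 23 codons within 2 differences of another of the 41 members. These codons are 5.24% of its CDS. In USP2, 39.6% of the reads lay on 1 such codon. The shares were 12% in USP12, 9.48% in USP46, 6.46% in USP22 and 3.61% in USP28, and lower than that in the other members. USP genes outside the 41 members, such as USP41 and USP29, were not searched for these shares. The highest codon of USP37, which lies within 2 differences of USP29, is therefore not counted. Without the codons that are counted, the occupancy fell to 0.115 in USP27X and 0.116 in USP2, below USP15 with 0.157 and USP13 with 0.125. USP14 had no codon counted and stayed at 0.70. No source used here gives the number of mismatches that the alignment allowed, and whether reads of USP22 were placed on its relatives was not tested. The share of such reads in the translational efficiency of USP27X is not known. Longer shared sequence with pseudogenes and relatives was also present: over 5% of the CDS windows of 30 nt occurred in a transcript of another gene for USP18 (57.1%, chiefly USP41), USP12 (54.1%, chiefly pseudogenes), USP32 (40.4%, USP32P4 and USP6), USP10 (38.5%), USP8 (18%), USP4 (8.40%) and USP7 (8.06%), so that the values of these genes are uncertain.

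USP12 and USP46, 88.5% identical in protein, had opposite orders in the 2 measures. USP46 had an occupancy of 0.0707 (0.0222, 0.0230 and 0.0256) and USP12 of 0.0244 (0.00775, 0.00813 and 0.00853), without overlap, whereas USP12 had the higher translational efficiency. Aligned codons were among the highest in both genes. USP12 codon 336, its highest, had 50 reads, and USP46 codon 332, the fourth by reads, had 67. USP46 codon 340, its highest, had 88 reads, and USP12 codon 344, the second by reads, had 49. Each of these pairs of windows differs at 2 of 30 positions, C7T and A19G for the first pair from USP12 to USP46, and T7A and T28C for the second from USP46 to USP12. In contrast to USP27X, on codons with 6 or more differences USP46 still had 1344 reads to 526 in USP12.
USP12 codon 336: tgatgacgacattGTAgaaaaaatagatgc
USP46 codon 332: tgatgatgacattGTAgagaaaatagatgc
USP46 codon 340: agatgctcaagctATTgaagaattctatgg
USP12 codon 344: agatgcacaagctATTgaagaattctacgg
The first windows span exons at chr13:27643511-27645226 and chr4:53463897-53464812, and the last lie at chr4:53463873-53463902 and chr13:27643487-27643516, all on the minus strand. Among the other related pairs, USP13 had an occupancy of 0.125 and USP5 of 0.0369, USP15 of 0.157 and USP4 of 0.0898, and USP33 of 0.0461 and USP20 of 0.0240, each without overlap of the libraries. USP7 with 0.0633 and USP47 with 0.0640 overlapped.

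In the 26 genes with both measures, translational efficiency and CDS occupancy had a Spearman coefficient of 0.415, against 0.688 over all 6912 genes in both tables. The measures share the RPF libraries, and the coefficient is a description across genes. USP14 was first in both. USP3 lay farthest from the relation, at percentile 10.3 of translational efficiency and 76.5 of occupancy, followed by USP46 at 22.3 and 71.2. In the other direction, USP18 lay at percentile 65.0 of translational efficiency and 25.2 of occupancy, and USP12 at 61.6 and 24.4. For the last 2 genes more than 50% of the CDS windows are shared with other genes.

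Along the CDS, the members did not lean to either end. The mean occupancy of the first 75 codons over that of the last 75 had a median of 1.03 over the 35 members, with 18 above 1, and of 0.985 over the other transcripts, of which 49.3% were above 1. In 29 of the 34 members with reads in the last window of every library, the 3 libraries lay on the same side of 1. This was not counted in the other transcripts, so it cannot be read as particular to the family. The ratio was highest in USP4, at 21.3 (15.5, 23.5 and 28.3 in the libraries), from 194 reads at the start and 9 at the end. The listed USP4 transcript has 314 codons, of which the first 232 also belong to the MANE Select isoform of 964 codons. The 232 codons held 721 reads and the other 82 codons held 9, so the last window lies wholly in sequence that the MANE Select isoform does not code. USP19 came next with 5.75 (5.19, 6.03 and 6.07), from 490 and 84 reads, and all 75 codons of both windows belong to its MANE Select isoform. USP2 had 4.01 (3.0, 3.72 and 5.93), which without the codon close to USP22 was 0.856, and 49 of its first 75 codons are not in its MANE Select isoform. At the other end USP27X had 0.106 (0.0984, 0.104 and 0.118), which without codons close to another member was 0.546. USP43 had 0.117 from 1 and 7 reads, and USP38 had 0.220 (0.190, 0.20 and 0.276) from 63 and 278 reads, with 16 of its last 75 codons not in its MANE Select isoform.

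Upstream of the start codon, 1111 in-frame reads fell in the 5′UTRs of the members. The occupancy per codon of the 5′UTR was a median of 4.59% of that of the CDS, against 2.86% in the other transcripts. Here 14 of 35 members exceeded 10%, as did 28.1% of the others, but some of the 14 rested on few reads. USP44 and USP34 had 1 read each and USP21 had 20. The order of the medians turned with the stretch of the 5′UTR used. Over the last 17 codons they were 1.44% and 2.05%, and without the 5 codons next to the start they were 1.35% and 1.95%. In 6 members there was no read. The highest ratios were 79.3% in USP49 (38.2%, 106% and 112%) and 50.9% in USP20 (29.4%, 60.7% and 64.6%), but from 10 and 19 reads. USP37 had 46.7% with the libraries close together (44.1%, 47.5% and 48.6%) and 195 reads. USP16 followed with 39.4% (36.0%, 41.0% and 41.0%) and 253 reads, the most of any member. Of these reads, 231 (91.3%) lay in an upstream open reading frame in the frame of the CDS, read from the matched GENCODE transcript. It runs from an ATG at codon −41 to a stop at codon −4, where codon −1 is next to the start codon. The 5′UTR of that transcript differs from the listed one by 39 nt, so the frame is uncertain. The 37 codons of the frame held 6.24 reads each, compared with 10.2 in the CDS. In USP8 all 100 reads lay between codons −46 and −17, in a stretch without an ATG, and 53 of them on codon −31.

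USP28, which is involved in the DNA damage response, had 58 reads in the 5′UTR, all in a frame that runs open from codon −62 into the CDS. For 53 of these codons, with 57 of the reads, GENCODE has another USP28 transcript in which this sequence is coding. These reads are thus upstream of the start only in the listed transcript. The ATG in the USP28 window below is not in the frame of the marked codon. No other annotated transcript coded for the codons with reads in USP37, USP16 or USP8. The matched 5′UTRs differed from the listed ones by 1 nt in USP37, 11 nt in USP28 and −17 nt in USP8, so upstream positions are uncertain. The windows below mark where the upstream reads lie: the ATG of the USP16 frame and the codons with most reads in the other 3, in capitals, with 31 reads on the codon of USP37, 15 on that of USP28 and 53 on that of USP8. They lie at chr2:219427494-219427523 (minus strand), chr21:30397071-30398031 (plus strand, across exons 1 and 2), chr11:113746201-113746230 (minus strand) and chr15:50716672-50716701 (plus strand).
USP37 codon −68: ttccggagaactGGCatagctgcagaatat
USP16 codon −41: gatgcagttATGggctctgtcgccgtggaa
USP28 codon −53: ctcggccatgacTGCggagctgcagcagga
USP8 codon −31: gcgagaaggctgGCGttagtgaagcgcgcc

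The catalytic fold offered a way to set the members side by side at the same site. The stretch that holds the active-site cysteine was found in 30 members, of which 26 had at least 500 reads. The codon just before the cysteine, a threonine or serine codon, held more than 2 times the mean reads of the CDS in 15 of the 26 (57.7%), with a median of 2.86 times. Of all codons in these members 14.5% exceeded 2 times, and of 89 other threonine or serine codons before a cysteine 11.2% did. However, members also resemble each other in sequence here. In 10 of the 26 the window of 28 nt lay within 2 differences of another of the 41 members. Among the remaining 16 the codon exceeded 2 times in 7 (43.8%), with a median of 1.21. USP genes outside the members were not searched, so some of the 16 may also have a near copy. Among the 10, USP38 codon 453 and USP8 codon 785 differ by C5T and A16T within the 28 nt. They also differ by A29T and G30C in the 2 nt that follow, and had 29 and 28 reads.

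Among members without such a near copy, USP15 had 93 reads on this codon, or 7.83 times the mean (6.92, 7.35 and 9.27), and USP1 had 145, or 5.87 times (5.00, 5.07 and 7.47). USP7 had 93, or 5.13 times (2.83, 6.42 and 7.49). USP14, in spite of its high occupancy, had 14 reads or 0.424 times the mean (0.265, 0.282 and 0.705), and USP16 had none in 8389 CDS reads. USP3, USP34 and USP42 had none either. The windows of USP15, USP14 and USP16 show how alike these stretches are in members that differ in occupancy there, and lie at chr12:62749217-62749246, chr18:180259-180288 and chr21:30409745-30409774, all on the plus strand.
USP15 codon 297: taacttgggaaatACGtgtttcatgaactc
USP14 codon 113: aaaccttggtaacACTtgttacatgaatgc
USP16 codon 204: taatttgggaaacACAtgtttcttcaatgc

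A second stretch of the fold, leucine or isoleucine, lysine, arginine or lysine, and phenylalanine, was found in 21 members, 18 of them with at least 500 reads. Here no window lay within 2 differences of another member. The phenylalanine codon exceeded 2 times the mean in 12 of the 18 (66.7%), with a median of 3.07 times, whereas 14.4% of 555 other phenylalanine codons of these genes did. Unlike the codons compared at the cysteine, the 555 were not matched by the next residue, with which occupancy varied. USP33 had 299 reads on codon 611, its highest codon, or 23.8 times the mean (19.2, 25.2 and 28.1). USP46 had 12.9 times (9.85, 14 and 14.9), USP22 had 7.22 times (5.27, 7.99 and 9.15), USP5 had 6.23 times (5.81, 6.0 and 6.78) and USP12 had 5.34 times (5.15, 5.27 and 5.54). USP13 had 1 read there and USP20, the relative of USP33, had none in 536. Both stretches were chosen after the occupancy had been seen, so these counts are a description. The windows of USP33, USP46 and USP12, with the phenylalanine codon in capitals, lie at chr1:78183692-78183721, chr4:53468155-53468184 and chr13:27649460-27649489 on the minus strand.
USP33 codon 611: ccaccttaaaagaTTCagacatgaactaat
USP46 codon 258: gcacctaaagcggTTCaagtacatggagca
USP12 codon 262: acacctgaagagaTTTaaatatatggatca

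**Figure D5:**
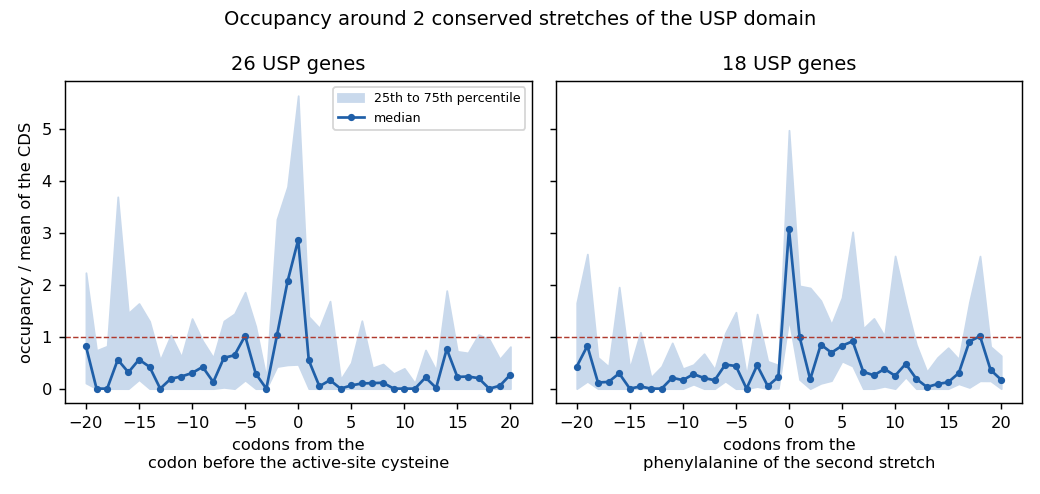
Reads per codon over the mean of the CDS (linear axis) from 20 codons before to 20 codons after the codon preceding the active-site cysteine (26 USP genes) and the phenylalanine of the second stretch (18 USP genes), as the median (line) and the 25th to 75th percentile (band), with the CDS mean as a dashed line. The medians peak at 2.86 and 3.07 on the marked codons, and the band at the cysteine includes 10 genes with a near copy in another member.

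Across the whole CDS of 31 members with reads on at least 25% of codons, occupancy also varied with the residue of the next codon. It was highest before glutamate, at 1.98 times the mean of the CDS (1.89, 2.02 and 2.03), and lowest before proline, at 0.391 (0.374, 0.389 and 0.409), and the 7188 other transcripts had 1.86 and 0.402. Before cysteine the members had 1.42 (1.38, 1.40 and 1.47) and the other transcripts 0.969. The library ranges of these 3 residues did not overlap within the family, and the value before cysteine includes the active-site codons described above.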

How the data were processed

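RPFs and total RNA were sequenced from the same lysates of HEK293 cells in 3 replicates. The authors trimmed reads with Cutadapt, removed PCR duplicates, set rRNA and tRNA aside, used bowtie on the hg19 transcriptome for RPFs, kept reads of 28 to 30 nt and placed them with an offset of 13 nt. The submitters' processing notes name cutadapt 1.16, Bowtie 1.1.2, TopHat2 2.1.1 and HTSeq 0.9.1. The deposited translational efficiency is a linear ratio of RPF to total RNA per gene and replicate, whose formula no source used here gives, so depth cannot be read from it. The deposited occupancy holds in-frame counts per codon normalized by the authors for library size and divided by TPM, and its depth is the number of reads behind each value.

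The test of translational efficiency used limma 3.58.1 (R 4.3.3) against the median of all values, with no filter on low values and an FDR of 0.05. Reads behind occupancy values were recovered at a relative tolerance of 1e-11. Both steps were tested on simulated data. The CDS lists of USP24 and USP34, broken over 2 lines, were rejoined, with 1 missing codon each. Transcripts were matched by symbol and CDS length to GENCODE 44 on GRCh37, and proteins translated from them were aligned with Biopython 1.88. Python 3.11.15, numpy 2.4.6, pandas 2.3.3, scipy 1.17.1 and matplotlib 3.10.9 were used.

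The members, gene lists and pairs were chosen with earlier results of these data known. A further gene list is not reported here. Replicate values of translational efficiency are given for all 32 members, beyond the 5 highest and 5 lowest, the pairs and the genes without a call or with a changed call that had been chosen at first, and values of occupancy for the 3 extremes of each measure. The conserved stretches, the comparison of near-identical windows, the least number of 500 reads for the stretches, that of 40 reads for frames in the 5′UTR, and the alternatives without near-identical codons, without genes of shared sequence and without USP4 were chosen after the values had been seen. Replicates of the same number share a lysate, and the ratio is taken within each number.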

Additional observations from a re-analysis of the deposited data

Results flagged for a closer look

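In-frame reads after the stop codon were not part of any comparison. The 35 USP transcripts had 97 of them in all, 0.0476% of their CDS reads, and 18 transcripts had none. With no control samples, 7 transcripts exceeded the 3 reads that a count of 0 allows, which covers counting error only. USP4 had 35 (6, 14 and 15 in the 3 libraries), or 4.79% of its CDS reads, on the short isoform listed for it, and none of these codons is coding in the MANE Select isoform. USP3 had 11, USP1 had 11, USP13 had 10, USP28 had 7, USP22 had 5 and USP46 had 4, each at most 0.366% of the CDS reads.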

How the results depend on the processing

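Of 48 alternatives for summary results, 41 stayed on the same side or within the stated spread. With a replicate block (each replicate centred on its own median) 27 members were called, 10 higher and 17 lower, so the block changed no call. The paired differences within a replicate had the same sign in 8 of 8 pairs, as in at least 90.2% of all pairs of genes. Leaving out 1 replicate gave 27 members called each time and a median translational efficiency between 0.272 and 0.299. Against a difference of 1.5 times, 14 were called and 2 of them higher, by construction of a stricter test. The mean of CDS occupancy over members was 0.0752 in place of the median of 0.0347. The ratio of the first to the last window was 0.921 without the highest codon of each window and 0.897 without codons close to another member, so it lay on both sides of 1. The 5′UTR ratio was 1.44% over the last 17 codons and 1.35% without the 5 codons next to the start, and the cause was not tested.

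Of 287 values for single genes, 264 kept direction and call. The signs that turned belong to genes without a call: USP22 to −0.084 (centred on the mean), −0.0073 (lowest 5% of genes left out) and −0.00729 (without replicate 1, against 0.142 without replicate 2), USP4 to −0.0769 and −0.000163 in the first 2 of these, USP9X to −0.0685 (centred on the mean) and USP16 to 0.0352 (without replicate 3, against −0.121 without replicate 2). USP5 and USP16 were called lower when centred on the mean, and USP5 also without the lowest 5%. The 13 calls lost against 1.5 times are USP1, USP11, USP12, USP13, USP18, USP27X, USP33 and USP48 above the median and USP7, USP8, USP30, USP34 and USP47 below it. USP43 and USP44, with 91 and 58 CDS reads, allow no statement on single codons.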
